A study of Mus musculus with 6 samples.

Results

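The Kruppel-like factors examined here were 10 members of the family, Klf2, Klf3, Klf4, Klf5, Klf6, Klf9, Klf10, Klf11, Klf13 and Klf15, out of 54532 genes with a value in the hearts. They were taken by gene name and not by their values, except that Klf15 had already been picked by the study from genes lowered in these same hearts. The question was whether Klf15 changed alone in its family. Hearts of 3 control mice (Ctrl) and 3 conditional knockout mice (cKO) were sequenced 12 weeks after tamoxifen, which every animal received at 45 mg per kg per day for 5 days from 8 weeks of age. The Ctrl animals were Mrps5 fl/fl, with both Mrps5 alleles flanked by loxP sites and without Cre. The cKO animals were Mrps5 fl/fl; MCM, and so also carried MerCreMer, a tamoxifen-inducible Cre recombinase driven by the alpha myosin heavy chain promoter in cardiomyocytes. Because no Ctrl animal carried MCM, the deletion and the transgene cannot be told apart. The methods describe the RNA as ventricular, so it came from all cell types of that tissue. Each heart was a separate animal.

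Kruppel-like factors are DNA-binding proteins with zinc fingers at the carboxyl end that bind GC-rich and CACCC-type sequences. Outside the fingers they differ. KLF2, KLF4, KLF5 and KLF6 recruit acetyltransferases and mostly activate, KLF3 and KLF12 bind the co-repressor CtBP, and KLF9, KLF10, KLF11, KLF13 and KLF16 bind the co-repressor Sin3A. KLF15 stands outside these groups. In heart and muscle it is known for switching on the breakdown of branched-chain amino acids and the use of lipids, and for restraining hypertrophic growth. KLF2 and KLF4 are best known in endothelium, where blood flow induces them, and Klf9 and Klf15 are both induced by glucocorticoids and follow the day.

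Start regions of the 3 members that changed are shown first, because motifs in them are referred to below. These are RefSeq sequences of GRCm38.p6 from 250 bases before to 20 bases after the annotated start, with 2 motifs in capitals. CACGTG is the E-box bound by the MYC-MAX pair and by the clock pair CLOCK-BMAL1. CACCC, or GGGTG where it lies on the other strand, is the core of a site that Kruppel-like factors themselves bind. No match of either motif overlapped the other.
Klf15, chr6:90462326-90462595, plus strand: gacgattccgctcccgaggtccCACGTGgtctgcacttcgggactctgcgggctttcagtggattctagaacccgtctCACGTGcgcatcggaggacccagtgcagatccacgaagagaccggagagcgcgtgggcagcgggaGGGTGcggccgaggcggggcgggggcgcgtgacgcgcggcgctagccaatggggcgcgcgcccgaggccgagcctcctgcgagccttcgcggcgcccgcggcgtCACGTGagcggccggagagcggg
Klf9, chr19:23140976-23141245, plus strand: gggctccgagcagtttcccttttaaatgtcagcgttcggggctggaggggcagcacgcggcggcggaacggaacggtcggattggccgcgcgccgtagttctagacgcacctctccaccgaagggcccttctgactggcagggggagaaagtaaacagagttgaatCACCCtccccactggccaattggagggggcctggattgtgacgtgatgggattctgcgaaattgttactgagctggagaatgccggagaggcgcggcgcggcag
Klf2, chr8:72318812-72319081, plus strand: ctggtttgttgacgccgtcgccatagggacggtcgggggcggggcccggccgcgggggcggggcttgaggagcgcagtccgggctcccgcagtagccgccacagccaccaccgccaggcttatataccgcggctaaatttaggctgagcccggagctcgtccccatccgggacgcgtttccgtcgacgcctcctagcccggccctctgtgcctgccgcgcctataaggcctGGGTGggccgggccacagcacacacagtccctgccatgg

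The Klf15 sequence held 3 E-boxes, with first bases 228, 172 and 3 bases before the start. Among 32851 mouse promoters of 300 bases (250 before and 50 after the start), 7.15% held at least 1 CACGTG and 29 (0.088%) held 3 or more. Klf9 and Klf2 had none. Of the 8 members with a RefSeq promoter, Klf4, Klf6 and Klf11 each had a single E-box, at 182, 43 and 214 bases before the start. A CACCC box was found in Klf15 (107 bases before the start), Klf9 (84), Klf2 (19), Klf13 (22) and 5 times in Klf3, against 57.5% of all promoters with at least 1. The D-box TTANGTAA of the clock factors DBP, TEF and HLF, searched on both strands, was in 2.32% of all promoters and in 0 of these 8. A match is a stretch of letters and was not tested as a binding site.

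The deleted gene was examined as a check of the labels. Mrps5, which encodes a protein of the small mitochondrial ribosomal subunit, measured 5.20, 6.45 and 6.33 FPKM across Ctrl animals and 1.12, 1.23 and 1.31 across cKO animals. Values of a group are given in the order of its replicates 1, 2 and 3. FPKM counts fragments per kilobase of a gene, with libraries brought to a common size. The libraries held 15989322 to 24875499 reads assigned to genes. In 5 hearts Xist was between 0.00329 and 0.127 FPKM, and in cKO replicate 2 it was at 10.7 FPKM, so this heart differed from the others in sex. Atrial markers also varied within groups. Their summed level was 2096, 302 and 137 FPKM in the Ctrl hearts and 584, 1358 and 1703 FPKM in the cKO hearts. Nppa, which the study used as a hypertrophy marker, made up 1062, 144 and 103 FPKM of it in Ctrl hearts. In cKO hearts it made up 469, 1127 and 938 FPKM, so the sum does not measure atrial tissue alone. Myl7, the next largest, was at 679, 98.6 and 18.15 FPKM in Ctrl and 71.8, 170 and 495 FPKM in cKO hearts. Calls lost without cKO replicate 2, or without both Ctrl replicate 1 and cKO replicate 3, the hearts with most atrial marker RNA of their groups, are given beside the results or counted there among the alternatives that ended a call. Fits on fewer hearts have less power, so a call lost there need not mean a smaller change.

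Klf15 did not change alone. Klf15, Klf9 and Klf2, the 3 most abundant members, were each lower in cKO, and Klf12, a family member outside the 10, was lower as well. Of the 10 members, 9 passed the filter of a mean of at least 0.5 FPKM, 3 of these 9 were lower and 0 were higher at a limma adjusted p under 0.05. Over all 12944 genes tested by the same fit, 17.0% were lower and 16.3% were higher, and 9 genes are too few to set the members' share apart from this background. The median log2 fold change was -0.28 for the 9 members and -0.02 for all genes. By unadjusted p, Klf3 was the only further member under 0.05 (p 0.0281, limma), so that 0 members were higher by that measure too, as by voom, the other test run. In 5 of the 9 all cKO hearts lay below all Ctrl hearts, which was so for 26.4% of all genes tested.

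**Figure D1:**
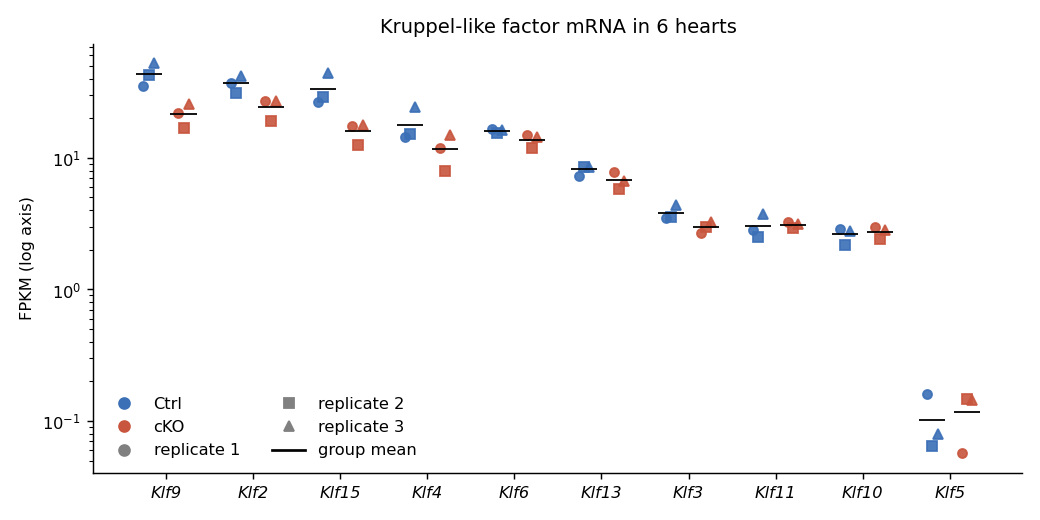
FPKM of the 10 Kruppel-like factors on a log axis in each of the 3 Ctrl (blue) and 3 cKO (red) hearts, with the replicate number as marker shape and the group mean as a bar. Klf9, Klf2 and Klf15 lie highest and are the 3 whose change passed the threshold, while Klf5 lies below 0.2 FPKM in each heart.

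Levels in Ctrl hearts spanned a wide range. Klf9 had the highest mean, 43.4 ± 8.50 FPKM (SD, n = 3), followed by Klf2 at 36.7 ± 5.60 and Klf15 at 33.3 ± 9.77 FPKM. The ranges of these neighbours overlapped, so that their order is not resolved. Klf4 at 17.9 ± 5.43 and Klf6 at 16.0 ± 0.568 FPKM came next, also with overlapping ranges, then Klf13 at 8.16 ± 0.725 FPKM apart from both neighbours. Klf3, Klf11 and Klf10 had means of 3.82, 3.02 and 2.62 FPKM, each overlapping the next. In cKO hearts Klf2 had the highest mean, 24.4 ± 4.51 FPKM, ahead of Klf9 at 21.6 ± 4.55 and Klf15 at 15.9 ± 2.96 FPKM, and the ranges of Klf15 and Klf6 (13.7 ± 1.59 FPKM) now overlapped.

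Klf15 (ENSMUSG00000030087, GRCm38 chromosome 6, 90462576 to 90475238) measured 26.4, 29.0 and 44.5 FPKM across Ctrl animals and 17.5, 12.5 and 17.7 across cKO animals. No cKO heart reached the Ctrl range, and Ctrl replicate 3 stood well above the other Ctrl hearts. The cKO mean was 47.8% of the Ctrl mean. The log2 fold change, here and below on the log2(FPKM + 1) scale, came to -0.999 (SE 0.22; limma adjusted p 0.0137). It was -0.78 without Ctrl replicate 3 (adjusted p 0.0268) and -0.84 without cKO replicate 2 (adjusted p 0.0312). These are the hearts on which the study chose Klf15, so its decrease is not independent evidence.

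Klf9 (ENSMUSG00000033863, chromosome 19, 23141226 to 23166911), a Sin3A-binding member induced by glucocorticoid and thyroid hormones, measured 35.2, 42.9 and 52.1 FPKM across Ctrl animals and 22.1, 16.8 and 25.9 across cKO animals. Again no cKO heart reached the lowest Ctrl heart. The cKO mean was 49.8% of the Ctrl mean, with a log2 fold change of -0.98 (SE 0.19, limma adjusted p 0.00935). The counts behind these values were 2187 to 4115 reads in Ctrl and 1221 to 2122 in cKO. A microRNA gene, Mir1192, lies within Klf9 and was at 0.657 FPKM or less in each heart. Klf9 and Klf15 kept their calls in all 15 alternatives run, among them scaling, filters, voom and the removal of each heart in turn.

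Klf2 (ENSMUSG00000055148, chromosome 8, 72319033 to 72321656), the flow-induced endothelial factor, measured 37.1, 31.0 and 42.2 FPKM across Ctrl animals and 27.1, 19.2 and 26.9 across cKO animals. The groups did not overlap, and the cKO mean was 66.4% of the Ctrl mean. Its log2 fold change of -0.58 (SE 0.16) passed the threshold (limma adjusted p 0.035). This call was the least secure of the 3. It was lost without Ctrl replicate 1 (adjusted p 0.0905), Ctrl replicate 3 (0.107) or cKO replicate 2 (0.0569), without both Ctrl replicate 1 and cKO replicate 3 (0.119), and when libraries were scaled to their total without mitochondrially encoded genes (0.0783).

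Endothelial markers were set beside Klf2. Of 8 markers 4 were lower and 0 higher, against 17.0% and 16.3% of all genes tested. Tie1 (log2 fold change -0.73, limma adjusted p 0.00181) and Tek (-0.66, adjusted p 0.00287), receptors of the angiopoietin pathway, had the largest decreases. The other 4 did not pass, and among them Cldn5 was at 0.128 (adjusted p 0.776). The summed level of the 8 was 163, 151 and 176 FPKM in the Ctrl hearts and 108, 122 and 112 FPKM in the cKO hearts, 69.7% of the Ctrl mean (exact permutation p 0.1, the smallest that 3 against 3 hearts allow). Within cKO the sum was highest in replicate 2, the heart in which Klf2 was lowest. Per 1000 FPKM of summed endothelial markers, a measure chosen after the values were seen, Klf2 was at 228, 205 and 239 in Ctrl and at 251, 158 and 241 in cKO hearts, and the groups overlapped (means 224 and 216, exact permutation p 1). Klf2 also overlapped per 1000 FPKM of summed cardiomyocyte markers (means 2.2 and 2.09, exact permutation p 0.9), so this was not particular to endothelial markers. The endothelial ratio for Klf15 was 202 ± 45.8 in Ctrl and 141 ± 33.5 in cKO hearts (exact permutation p 0.1). For Klf9 it was 265 ± 42.9 and 191 ± 48.1 (exact permutation p 0.2). In bulk tissue, fewer cells of a type and less RNA per cell cannot be told apart.

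Klf4, also an endothelial and smooth muscle factor, measured 14.4, 15.2 and 24.1 FPKM across Ctrl animals and 11.8, 7.99 and 15.0 across cKO animals. Its log2 fold change of -0.58 was as large as that of Klf2, but the groups overlapped and the spread was wider (SE 0.26, limma adjusted p 0.125). It was -0.36 without Ctrl replicate 3 or without cKO replicate 2, closer to 0 than Klf2 in the same fits (-0.48 and -0.42). Klf6, an activator induced in injury, measured 16.5, 15.4 and 16.2 FPKM across Ctrl animals and 14.9, 11.9 and 14.3 across cKO animals. These groups were separate by a narrow margin, with a log2 fold change of -0.22 (SE 0.10, limma adjusted p 0.121). Klf5, which acts in smooth muscle and epithelium, measured 0.161, 0.0647 and 0.0795 FPKM across Ctrl animals and 0.0568, 0.148 and 0.145 across cKO animals, from 5 to 19 reads a heart. It was below the filter and was not tested, and a difference was not detectable at this depth.

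Among the members that bind co-repressors, Klf3 measured 3.50, 3.55 and 4.42 FPKM across Ctrl animals and 2.68, 2.96 and 3.24 across cKO animals. No cKO heart reached the Ctrl range, yet the change of -0.28 (SE 0.10) did not pass the threshold (limma adjusted p 0.073). Only voom on the recovered reads put it past (adjusted p 0.0474, range over its alternatives 0.0474 to 0.219). Klf13, a Sin3A-binding member known in heart development and T cells, measured 7.33, 8.57 and 8.60 FPKM across Ctrl animals and 7.85, 5.76 and 6.72 across cKO animals, and the groups overlapped (log2 fold change -0.24, SE 0.12, limma adjusted p 0.153). On the opposite strand inside Klf13 lies Gm27252, at 6.51, 4.69 and 5.25 FPKM across Ctrl animals and 2.72, 0.418 and 1.77 across cKO animals, and whether counting used the strand was not stated, so reads of the 2 genes may have been mixed.

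Klf10 and Klf11, the TGF-beta-inducible members, showed little difference. Klf10 measured 2.90, 2.19 and 2.78 FPKM across Ctrl animals and 2.97, 2.41 and 2.85 across cKO animals, a log2 fold change of 0.05 (SE 0.11, limma adjusted p 0.747). Klf11 measured 2.84, 2.49 and 3.73 FPKM across Ctrl animals and 3.25, 2.93 and 3.16 across cKO animals, a log2 fold change of 0.04 (SE 0.12, limma adjusted p 0.804). In both the groups overlapped, and the sign turned when Ctrl replicate 2 was left out.

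The same hearts stood at the ends of the range for several members. Of the 9 members tested, cKO replicate 2 was the lowest of the 6 hearts for 6 and Ctrl replicate 3 the highest for 7. The same count was not made over all genes, so it is not shown to be particular to the family. The part of sex, in which cKO replicate 2 differed from the other hearts, was not tested. Without cKO replicate 2, Klf15, Klf9 and Klf2 had log2 fold changes of -0.84, -0.82 and -0.42. Without Ctrl replicate 1 and cKO replicate 3 they were at -1.22, -1.25 and -0.64.

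**Figure D2:**
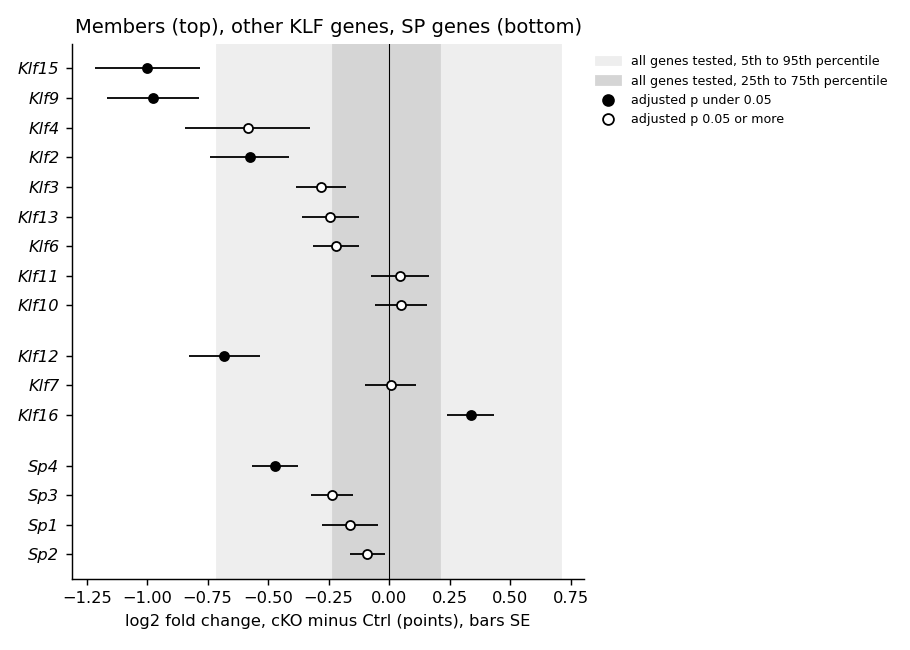
Log2 fold change (cKO minus Ctrl, log2(FPKM + 1) scale) with SE for the 9 members tested, the 3 other Kruppel-like factor genes tested and the 4 SP genes tested, over shaded percentile ranges of all 12944 genes. Klf15 and Klf9 lie left of the 5th percentile of all genes (-0.71), and Klf16 is the only filled point to the right.

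The rest of the family was examined for the same comparison. Of 7 other Kruppel-like factor genes in the data, 3 passed the filter, 1 of which was lower and 1 higher. Klf12, a CtBP-binding repressor, measured 1.43, 2.09 and 2.28 FPKM across Ctrl animals and 0.685, 0.681 and 1.10 across cKO animals. Its groups were separate, its log2 fold change of -0.68 (SE 0.15) passed (limma adjusted p 0.0135), and it kept its call in all 15 alternatives. Klf16, a Sin3A-binding member, measured 2.20, 2.05 and 2.74 FPKM across Ctrl animals and 2.98, 3.27 and 3.33 across cKO animals. It was higher by 0.34 (SE 0.10, limma adjusted p 0.0357), a call that 7 of 15 alternatives did not keep, among them no filter on low values and the removal of any heart but Ctrl replicate 3. Klf7, an activator best known in neurons, had a log2 fold change of 0.006 and no call in any alternative. With the members, 4 of 12 Kruppel-like factor genes tested were lower and 1 higher, against 17.0% and 16.3% of all genes tested.

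The SP factors, which bind the same GC-rich sites, were represented by 4 genes past the filter, with log2 fold changes from -0.47 to -0.09. Sp4 was lower, at 1.54, 1.62 and 1.55 FPKM across Ctrl animals and 0.655, 0.943 and 0.992 across cKO animals (limma adjusted p 0.0107), and lost its call only when Ctrl replicate 1 and cKO replicate 3 were both left out (0.0571). Sp3 had the next largest change, -0.24, and did not pass (adjusted p 0.0745), except without cKO replicate 3. Of 11 co-repressor and co-activator genes whose products bind these factors, 4 were lower and 0 higher, against 17.0% and 16.3% of all genes tested. Hdac3, a histone deacetylase, had the largest decrease (log2 fold change -0.40, adjusted p 0.0158), followed by the acetyltransferase gene Ep300 (-0.34, adjusted p 0.0441), all by limma. The other two were Ncor1 and Sin3a, named after their values were seen, at -0.34 and -0.28. Ep300 lost its call in 9 and Sin3a in 8 of 15 alternatives. Hdac3 lost it without Ctrl replicate 1 or 2 and without both Ctrl replicate 1 and cKO replicate 3 (0.083), and Ncor1 lost it in that last fit (0.0668) and with no filter on low values (0.0533).

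To ask whether the change of Klf15 was larger than that of its relatives in the same hearts, the log2 ratio of Klf15 to each other member tested was computed per heart. The ratio to Klf9 was -0.40, -0.55 and -0.22 across Ctrl animals and -0.32, -0.40 and -0.52 across cKO animals. It differed by only -0.02 (SE 0.11) between groups, with overlap and an exact permutation p of 0.9, and lay between -0.10 and 0.06 as each heart was left out. The changes of Klf15 and Klf9 could not be told apart within this error. The ratio to Klf2 differed by -0.42 (SE 0.16), that to Klf4 by -0.41 (SE 0.11) and that to Klf6 by -0.78 (SE 0.23). For Klf10 and Klf11 the differences were -1.05 and -1.04, and for Klf13 and Klf3 they were -0.76 and -0.72. In these 7 ratios all cKO hearts lay below all Ctrl hearts. Klf15 was picked by the study for its decrease in these same hearts, which by itself pushes its ratios down. They are therefore not independent evidence that Klf15 changed more than its relatives. Each had an exact permutation p of 0.1, the smallest possible here, and 0.114 after adjustment over the 8 ratios, so this design cannot put them past a threshold of 0.05.

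The summed level of the family was lower in each cKO heart than in any Ctrl heart. The summed FPKM of the 10 members was 146, 150 and 199 across Ctrl animals and 110, 82.6 and 116 across cKO animals, with means of 165 ± 29.2 and 103 ± 17.8 FPKM (exact permutation p 0.1). Klf15 made up 18.1%, 19.3% and 22.4% of this sum in Ctrl hearts and 15.9%, 15.1% and 15.3% in cKO hearts. Its mean share differed by -4.48 percentage points, at 15.4% ± 0.404 against 19.9% ± 2.23 (exact permutation p 0.1). This share has the same limit, as Klf15 was picked for its decrease in these hearts. Klf9 went from 26.3% ± 2.24 to 20.9% ± 1.23 and Klf2 from 22.4% ± 2.58 to 23.7% ± 0.766. The 3 together took 68.6% ± 1.19 in Ctrl and 60% ± 1.13 in cKO hearts (exact permutation p 0.1). They are the 3 members called lower in these same hearts, so this smaller joint share is no separate evidence. Klf6 had the largest gain in share, from 9.89% ± 1.59 to 13.4% ± 1.04.

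**Figure D3:**
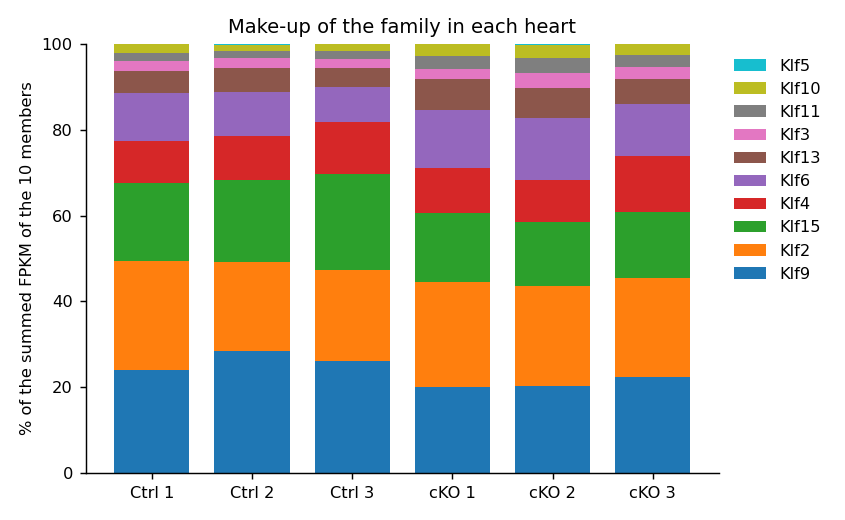
Share of each member in the summed FPKM of the 10 members, in percent, in each of the 6 hearts, stacked to 100. Klf15 takes 18.1% to 22.4% in the Ctrl hearts and 15.1% to 15.9% in the cKO hearts.

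Genes with a pattern like that of Klf15 were sought among 10165 other protein-coding genes averaging 1 FPKM or more, by the root mean square difference over the 6 hearts in log2(FPKM + 1) centred on the mean of each gene. The nearest were Kcnj2 (0.062), which encodes the inward rectifier potassium channel Kir2.1, Lifr (0.090), a cytokine receptor, Lpin1 (0.091), a phosphatidate phosphatase and metabolic coactivator, Ccrl2 (0.094), a chemerin-binding receptor, and Klf9 (0.11). Klf9 was thus in place 5 of all genes compared. Kcnj2 measured 7.96, 7.68 and 12.3 FPKM across Ctrl animals and 4.66, 2.90 and 4.60 across cKO animals, with its highest and lowest values in the same hearts as Klf15. Klf4 was in place 101 and Klf2 in place 197, whereas Klf11 and Klf10 were in places 4313 and 5052. The measure is a description over 6 hearts, and the depth, genotype and sex of a heart are common to the values of all its genes.

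**Figure D4:**
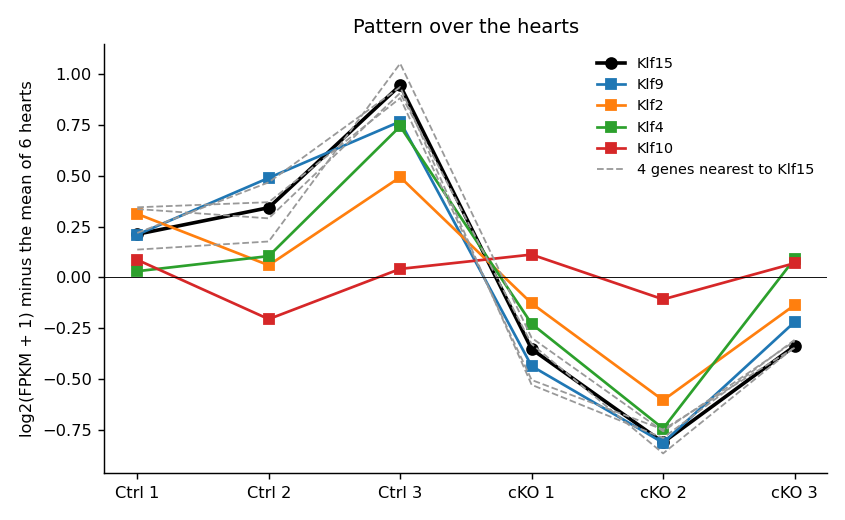
Log2(FPKM + 1) minus its mean over the 6 hearts for Klf15, 4 other members and the 4 genes nearest to Klf15, in each heart, with lines joining the points of a gene. Klf15 and Klf9 run together, highest in Ctrl replicate 3 and lowest in cKO replicate 2, while Klf10 stays near 0.

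Genes reported to depend on KLF15 in heart or muscle were mostly lower. Of 18 such genes 13 were lower and 1 higher, with a median log2 fold change of -0.61. The list was chosen with earlier results of these data known. The study had already reported branched-chain amino acid and fatty acid pathways as lowered in these same hearts. This count is therefore not independent evidence. Among all genes tested 17.0% were lower and 16.3% higher, with a median of -0.02. Ppm1k, which encodes the phosphatase that activates the branched-chain keto acid dehydrogenase, measured 14.6, 16.3 and 19.4 FPKM across Ctrl animals and 3.97, 4.56 and 6.63 across cKO animals (log2 fold change -1.57, limma adjusted p 0.00172). Lpl, the lipoprotein lipase gene, measured 595, 639 and 651 FPKM across Ctrl animals and 243, 238 and 313 across cKO animals (-1.25, adjusted p 0.00121). In neither gene did the groups overlap. Angptl4, whose product inhibits that lipase, was the single gene that was higher, at 4.34, 1.81 and 3.41 FPKM across Ctrl animals and 16.8, 6.07 and 9.88 across cKO animals (1.46, adjusted p 0.0224). Its call was lost without Ctrl replicate 2, Ctrl replicate 3 or cKO replicate 3, and without both Ctrl replicate 1 and cKO replicate 3 (0.0769). Cardiomyocyte markers moved the same way, 5 of 10 being lower and 0 higher, led by Pln (log2 fold change -1.43) and Ryr2 (-0.79), with a sum of 15615 to 19773 FPKM in Ctrl and 9574 to 16693 FPKM in cKO hearts (exact permutation p 0.3), and their part in these decreases was not tested. Per 1000 FPKM of summed cardiomyocyte markers Klf15 overlapped between groups, at 1.66, 1.47 and 2.85 in Ctrl and 1.83, 0.748 and 1.5 in cKO hearts (exact permutation p 0.5). The cKO mean of this ratio was 68.4% of the Ctrl mean. Per summed endothelial markers it was 69.8%, where the lowest Ctrl heart and the highest cKO heart both rounded to 162. The part of cell make-up in the change of Klf15 was not tested.

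**Figure D5:**
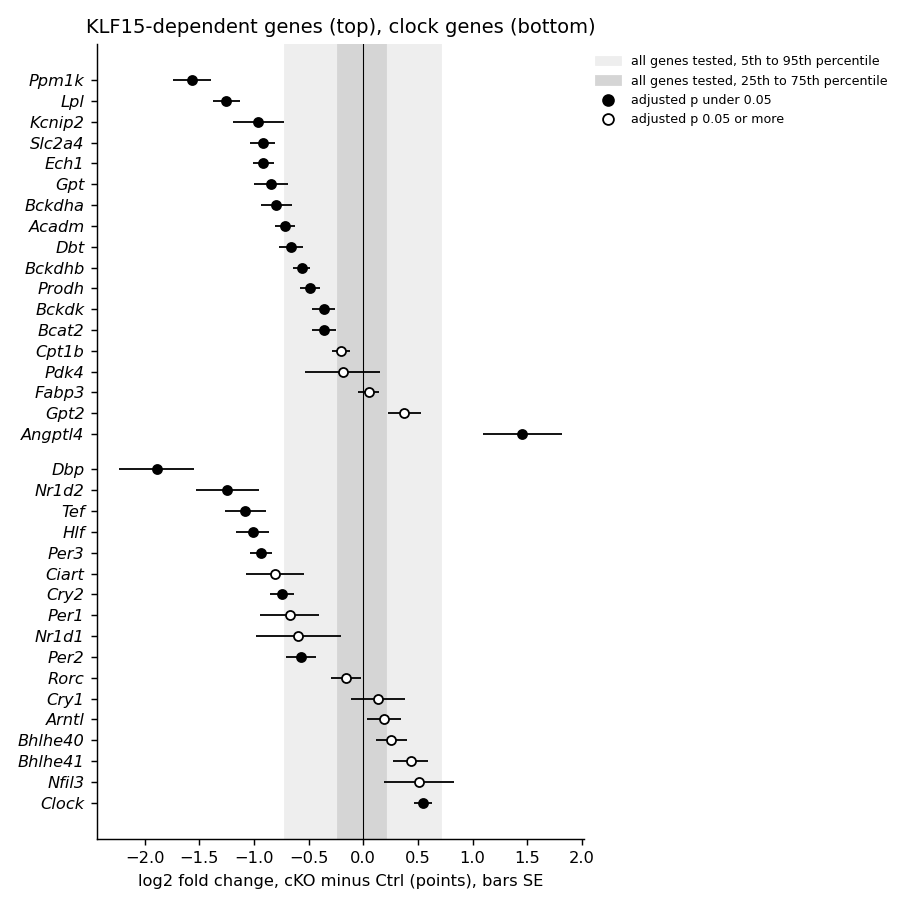
Log2 fold change (cKO minus Ctrl, log2(FPKM + 1) scale) with SE for 18 genes reported to depend on KLF15 and 17 clock genes tested, over shaded percentile ranges of all 12944 genes. Most filled points lie to the left, and Angptl4 and Clock are the filled points to the right.

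Clock genes were examined because Klf9 and Klf15 follow the day. Of 17 tested, 7 were lower and 1 higher, with a median log2 fold change of -0.59. The shares of all genes tested were 17.0% lower and 16.3% higher, with a median of -0.02. Dbp, a clock output factor that binds D-boxes, measured 27.0, 13.7 and 25.4 FPKM across Ctrl animals and 7.70, 2.96 and 5.19 across cKO animals (log2 fold change -1.89, limma adjusted p 0.00732). Nr1d2, the gene of the clock repressor REV-ERB beta, measured 23.8, 19.9 and 28.2 FPKM across Ctrl animals and 11.6, 5.51 and 12.8 across cKO animals (-1.24, adjusted p 0.0171), and lost its call without Ctrl replicate 1 or 3. Without both Ctrl replicate 1 and cKO replicate 3 neither Dbp (adjusted p 0.0637) nor Nr1d2 (0.0549) passed. Both had cKO replicate 2 as the lowest heart, as did Klf15 and Klf9. Clock was higher (0.55, adjusted p 0.00446). The hour at which the hearts were taken was not given in the sources used here, and its part in these values was not tested.

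Of 14 genes listed for glucocorticoid response, which included the receptor gene Nr3c1, 2 were lower and 1 was higher, with a median of -0.38. These shares of called genes were no larger than the 17.0% and 16.3% of all genes tested. The log2 fold change was negative for 11 of the 14, called or not, against 6717 of all 12944 genes. In 4 of the 14 all cKO hearts lay below all Ctrl hearts, which was so for 26.4% of all genes. Sult1a1, a sulfotransferase gene, was lower by 1.37 on the log2 scale (limma adjusted p 0.00289) and the phosphatase gene Dusp1 by 0.74 (adjusted p 0.0375, lost in 6 of 15 alternatives), while Cdkn1a, the gene of the cell cycle inhibitor p21, was higher (1.08, adjusted p 0.0137). Fkbp5, the feedback gene of the glucocorticoid receptor, measured 9.48, 17.3 and 14.3 FPKM across Ctrl animals and 16.0, 3.67 and 9.27 across cKO animals, and these ranges overlapped. The receptor gene Nr3c1 measured 9.81, 9.998 and 9.40 FPKM across Ctrl animals and 6.12, 8.99 and 8.50 across cKO animals without passing (adjusted p 0.133).

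TGF-beta genes were set beside Klf10 and Klf11, which TGF-beta induces. Of 15 tested, 5 were higher and 1 lower, with a median of 0.19. This and the next list stand beside 16.3% higher and 17.0% lower among all genes tested. Tgfb2, a ligand gene, measured 3.00, 2.28 and 1.68 FPKM across Ctrl animals and 10.9, 11.4 and 9.14 across cKO animals (log2 fold change 1.80, limma adjusted p 0.000928). Tgfbi was lower by 0.32 (adjusted p 0.0438) and lost its call in 10 of 15 alternatives. Klf10 and Klf11 did not pass in the same hearts. Immediate early genes, a class to which Klf2, Klf4, Klf6 and Klf10 also belong by their quick induction, had 5 of 14 higher and 1 lower, with a median of 0.36. Atf3 was higher by 1.36 (adjusted p 0.0146, lost at 0.104 without both Ctrl replicate 1 and cKO replicate 3) and Egr1 by 1.10 (adjusted p 0.0492, lost in 7 of 15 alternatives), and Dusp1 was the gene that was lower. None of the 4 Kruppel-like factors of that class was higher.

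Of 10 endothelial genes reported as targets of KLF2 or KLF4, 2 were lower and 2 higher, shares near the 17.0% and 16.3% of all genes tested. The list was not split into activated and repressed targets, so these counts cannot show whether the targets responded. Ptgds, a prostaglandin synthase gene, measured 284, 384 and 573 FPKM across Ctrl animals and 181, 142 and 156 across cKO animals (log2 fold change -1.31, limma adjusted p 0.00807), and Cav1, the caveolin gene, was lower by 0.84 (adjusted p 0.00458). Adamts1, a protease gene, was higher by 0.54 (adjusted p 0.0463) and the adhesion molecule gene Sele by 0.47 (adjusted p 0.0371), and the calls were lost in 7 of 15 alternatives for Adamts1 and 7 of 14 for Sele.

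Candidate regulators of Klf15 were examined last. Of 7 tested, 1 was higher and 1 lower, against 16.3% and 17.0% of all genes tested. Myc measured 2.34, 0.956 and 2.68 FPKM across Ctrl animals and 4.89, 7.93 and 9.26 across cKO animals (log2 fold change 1.497, limma adjusted p 0.00922), and lost its call without both Ctrl replicate 1 and cKO replicate 3 (0.058). Max, the gene of its partner at the E-box, measured 19.5, 18.8 and 23.2 FPKM across Ctrl animals and 14.0, 8.81 and 13.6 across cKO animals (-0.73, adjusted p 0.0197), and lost its call without Ctrl replicate 3 or without that pair of hearts (0.072). Nr3c1, Arnt, Creb1, Usf1 and Usf2 did not pass, with log2 fold changes from -0.29 to -0.08. Among the 4 members with E-boxes in the searched window, Klf15 was lower and Klf4, Klf6 and Klf11 did not pass. Klf9 and Klf2 were lower with no E-box there. The threshold sets Klf4 and Klf2 apart, since their log2 fold changes were alike (-0.585 and -0.577). Any part of the E-boxes in these changes was not tested.

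Other cell types were measured beside the members. Summed fibroblast markers were at 619 to 636 FPKM in Ctrl and 422 to 540 FPKM in cKO hearts. Most of this sum was Gsn, with means of 457.5 FPKM in Ctrl and 323.1 FPKM in cKO hearts, which did not pass (limma adjusted p 0.0584). Col3a1 (log2 fold change 1.57, limma adjusted p 0.00328) and Col1a1 (0.82, adjusted p 0.0208, lost in 4 of 15 alternatives) were higher. Dcn was lower (-0.59, adjusted p 0.0185, lost without Ctrl replicate 3 and without both Ctrl replicate 1 and cKO replicate 3). Smooth muscle and pericyte markers summed to 211 to 229 FPKM in Ctrl and 121 to 153 FPKM in cKO hearts, with Abcc9 (-1.07) and Rgs5 (-1.07) lower and Acta2 higher (0.89, lost in 5 of 15 alternatives). Leukocyte markers overlapped, at 145 to 219 against 130 to 189 FPKM, and of their genes Csf1r was lower (-0.64, lost without Ctrl replicate 3). The adipocyte sum, 183 to 213 against 92.5 to 120 FPKM, came almost wholly from Fabp4, which endothelium also expresses. The exact permutation p was 0.1 for the fibroblast, mural and adipocyte sums, 0.5 for leukocytes and 0.7 for the atrial sum, and no list had a marker at 0 in all hearts. The part of these shifts in the changes of the Kruppel-like factors was not tested.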

How the data were processed

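The authors isolated RNA from hearts of 3 Ctrl and 3 cKO mice, prepared poly-T selected libraries, aligned paired reads with HISAT2 (2.0.5), counted them with featureCounts (1.5.0-p3) and tested counts with DESeq2 (1.16.1), versions per the labels. They deposited FPKM, computed from the count and the gene length, which is a gene-level value deposited alongside. The labels name the build mm9, but all 54409 identifiers found in GENCODE M21 kept their chromosome and 53499 kept both ends, so coordinates are GRCm38. Whole reads were recovered for 100% of values (within 0.01 of a read), which gave 15989322 to 24875499 reads a heart.

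Groups and replicate numbers came from the sample titles. The 12944 genes that averaged 0.5 FPKM or more were tested on log2(FPKM + 1), a scale that understates changes of low genes, using limma 3.58.1 (R 4.3.3; linear model and trended eBayes, no covariates, two-sided, Benjamini-Hochberg over all genes tested, threshold 0.05). A separate step tested the fit on simulated data. Single values per heart were compared by two-sided exact permutation, which cannot go below 0.1. Errors after ± are SD over 3 hearts. The members and the gene lists were chosen with earlier results of these data known. Klf7, Ncor1, Sin3a, Fkbp5, Nr3c1, Arnt, Creb1, Usf1, Usf2, Cldn5 and Gsn were named after their values were seen. From each list the 2 largest increases and 2 largest decreases past the threshold were named by rule. A single gene among those so selected is not reported here and still counts in its list. Same-numbered hearts were different animals whose deviations correlated by -0.06, 0.18 and -0.01, so they were not treated as pairs. Motifs were searched in 32851 RefSeq promoters (GRCm38.p6).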

Additional observations from a re-analysis of the deposited data

How the results depend on the processing

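Of the 9 members tested, 2 to 4 were lower and 0 higher under each of the 15 alternatives. Klf2 lost its call with scaling without mtDNA-encoded genes (log2 fold change -0.49) and without both Ctrl replicate 1 and cKO replicate 3 (-0.64, an alternative added after seeing the data), and ranged from -0.69 to -0.42 as each heart was left out. Over the same 6 fits Klf10 ranged from -0.039 to 0.116, Klf11 from -0.052 to 0.167, Klf7 from -0.076 to 0.083 and the difference in the ratio of Klf15 to Klf9 from -0.101 to 0.0608. The share of Klf15 in the members differed by -5.40 to -3.24 percentage points under the alternatives run for it. With the replicate number as a block (replicate block), Klf15 was at -0.999 (limma adjusted p 0.0121) and Klf4 passed (-0.58, adjusted p 0.0283). The block also gave 4 endothelial targets lower, 2 clock genes higher and 0 TGF-beta genes lower.

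List counts were small and moved. Over all alternatives 9 to 13 KLF15-dependent genes were lower and 0 to 2 higher, and 4 to 9 clock genes were lower and 1 to 2 higher. In the glucocorticoid list 1 to 3 genes were lower and 1 to 2 higher. Immediate early genes ranged from 0 to 2 lower and 1 to 6 higher, and TGF-beta genes from 0 to 1 lower and 3 to 7 higher. Endothelial targets ranged from 2 to 4 lower and 0 to 2 higher, co-repressors from 0 to 4 lower and 0 to 1 higher, candidate regulators from 0 to 2 lower and 0 to 1 higher, SP genes from 0 to 2 lower, and other Kruppel-like factors from 0 to 1 higher with 1 lower throughout. The lowest counts mostly came from leaving out both Ctrl replicate 1 and cKO replicate 3. With fewer hearts, that fit called 1019 genes lower and 995 higher among all tested, against 2205 and 2110 in the main fit. Its lower counts are therefore not particular to these lists. As each heart was left out, up to 5 immediate early and 5 TGF-beta genes were higher. The cause was not tested. Without a filter most genes have no spread, which limits that fit, and the depth of each heart limits what can be said of Klf5.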
